A study of Mus musculus with 9 samples.

Results

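The insulin-like growth factor (IGF) system was described through 10 genes of 21959 in the deposited table, namely the ligands Igf1 and Igf2, the receptor Igf1r, the IGF binding proteins Igfbp2 to Igfbp7, and the protease Pappa. They were selected by gene name, with the levels and fold changes of these same libraries already known. Their values, fold changes and p-values from the fit of the whole table are therefore a description and no independent evidence of a response. RNA sequencing had been carried out on an SV40 line of mouse bone marrow mesenchymal stromal cells (MSCs), adherent cells that secrete growth factors and immunomodulatory proteins. The cells of every group were grown in medium with 10% fetal bovine serum and sampled after 24 h of treatment. In the TNBS PF group they received peritoneal fluid (PF) of mice given TNBS for 3 days. TNBS, a hapten, is applied in rodents to provoke colitis. In the control PF group they received PF of control mice, and in the PBS group phosphate-buffered saline. Each group had 3 libraries. The labels do not say whether the line is 1 clone, how many mice gave fluid or whether fluid was pooled, nor whether the 3 libraries came from separate cultures. The p-values therefore measure the spread between these libraries, which may be technical.

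IGF-I and IGF-II are secreted growth factors that signal through IGF1R, a receptor tyrosine kinase that activates PI3 kinase and Akt and keeps FOXO transcription factors out of the nucleus. The IGF binding proteins bind the ligands outside the cell, extend their half-life or keep them from the receptor, and are cut by proteases such as PAPP-A that release the ligand. Stromal cells of bone marrow are a known source of several of these proteins.

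Expression was given as FPKM, fragments per kilobase of exon at a common depth of assigned fragments. The libraries held 17.9 to 25.6 M assigned fragments, and the 3 TNBS PF libraries were the deepest, at 22.9 to 25.6 M, against 18.6 to 21.5 M in control PF and 17.9 to 20.3 M in PBS. At this depth 1 fragment in 1 kb of exon was worth an FPKM of 0.0391 to 0.056. Of 13 stromal markers 12 had FPKM of at least 1 in every library, while Lepr, a marker of perivascular marrow stroma, did not exceed 0.0908. The stromal list summed to 1519 to 1544 FPKM in TNBS PF, against 1596 to 1615 in control PF and 1617 to 1684 in PBS, lowest in TNBS PF without overlap. Its markers did not move together. Mean FPKM was lower in TNBS PF than in control PF for Col1a2 (270 against 309) and Ly6a (209 against 260). It was higher for Itgb1 (514 against 485) and Cd44 (89.4 against 77.0). All 5 neutrophil, all 5 lymphocyte and all 5 endothelial markers stayed under FPKM 1 in every library. Of 10 macrophage and monocyte markers 8 did so, with Ptprc (CD45) at most 0.00306 and Adgre1 (F4/80) at most 0.0156. The mesothelial list summed to 47.8 to 52.4 FPKM in TNBS PF, against 40.4 to 41.7 in control PF and 42.5 to 44.6 in PBS, carried by Msln, Krt18 and Krt19, the 3 of 9 markers with FPKM of at least 1 in every library. In bulk RNA, fewer cells expressing a gene and less of its RNA per cell cannot be told apart, and the part of these markers and of depth in the results was not tested.

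Igfbp7 ranked 292nd of 21959 genes by mean FPKM and Igfbp6 ranked 753rd, with 124 ± 2.33 and 59.7 ± 4.60 FPKM over the 9 libraries (SD). Igfbp4 (4.92 ± 0.411 FPKM) and Igf1r (4.70 ± 0.247 FPKM) followed. In control PF Igfbp4 lay above Igf1r without overlap (4.94 to 5.41 against 4.31 to 4.69 FPKM). In TNBS PF and in PBS their libraries overlapped. Igfbp3 (0.920 ± 0.676 FPKM) and Igf1 (0.882 ± 0.172 FPKM) came next, and their order differed between groups without overlap, with Igf1 higher in TNBS PF and control PF and Igfbp3 higher in PBS. Pappa, Igfbp2 and Igfbp5 lay near the detection limit, and Igf2 was listed at 0 throughout. Binding protein RNA was therefore mostly that of Igfbp7 and Igfbp6, while ligand RNA was near or below FPKM 1.

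**Figure D1:**
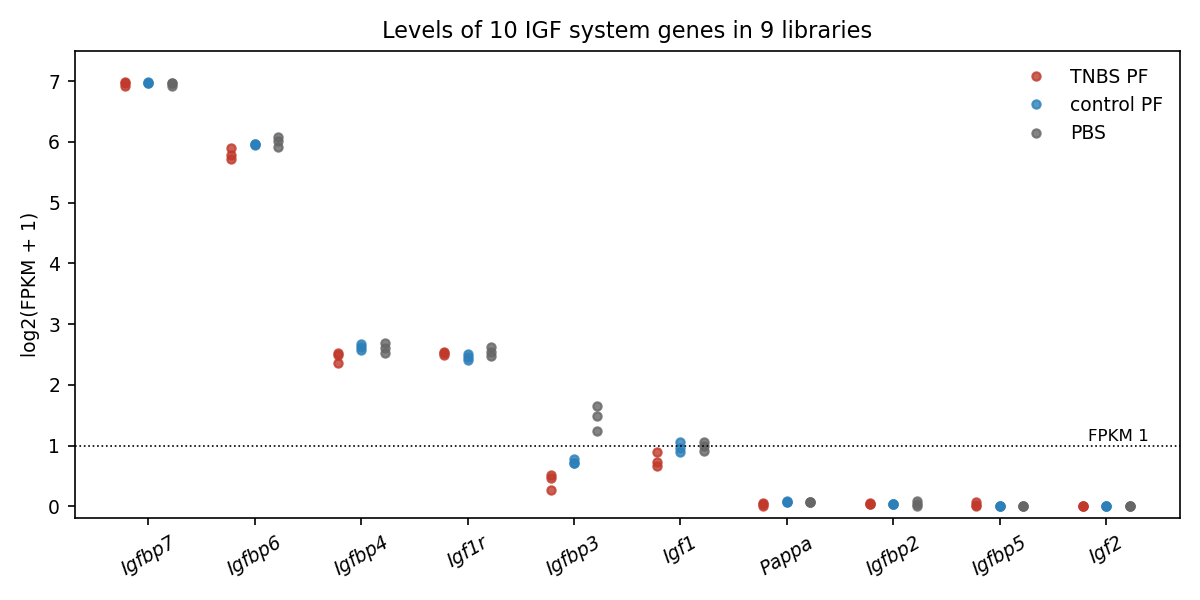
Levels of the 10 genes as log2(FPKM + 1), with 1 point per library, 3 libraries per group, and a dotted line at FPKM 1. Igfbp7 and Igfbp6 stand above the rest in all 9 libraries, and Igf2 lies at 0.

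Igfbp3 and Igfbp6 were the members called in at least 1 comparison, and Igfbp7 was the most abundant and was called in none, so the sequences upstream of these genes are shown for comparison. Each line gives the 250 bases before the transcript start in RefSeq (build GRCm38.p6), 5′ to 3′ on the strand of the gene, and capitals mark the motif matches described after them. The set of RefSeq windows used here held 9 of the 10 genes.
Igfbp3, chr11:7213924-7214173, minus strand: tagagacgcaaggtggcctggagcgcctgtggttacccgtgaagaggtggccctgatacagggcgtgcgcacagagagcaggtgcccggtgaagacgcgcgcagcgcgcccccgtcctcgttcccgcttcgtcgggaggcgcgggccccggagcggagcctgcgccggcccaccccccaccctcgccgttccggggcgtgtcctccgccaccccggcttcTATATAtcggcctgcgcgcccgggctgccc
Igfbp6, chr15:102143936-102144185, plus strand: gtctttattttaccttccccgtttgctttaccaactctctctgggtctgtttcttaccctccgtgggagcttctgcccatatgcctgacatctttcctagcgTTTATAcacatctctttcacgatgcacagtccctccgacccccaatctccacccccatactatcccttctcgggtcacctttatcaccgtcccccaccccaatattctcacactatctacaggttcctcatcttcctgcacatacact
Igfbp7, chr5:77408046-77408295, minus strand: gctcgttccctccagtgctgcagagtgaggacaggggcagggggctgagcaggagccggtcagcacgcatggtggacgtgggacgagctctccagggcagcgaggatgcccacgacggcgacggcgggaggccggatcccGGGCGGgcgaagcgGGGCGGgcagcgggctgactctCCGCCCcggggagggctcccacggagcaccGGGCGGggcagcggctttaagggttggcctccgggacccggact

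The Igfbp3 window was rich in GC (73.2%, with 32 CpG dinucleotides), as was that of Igfbp7 (74.0%, 26 CpG). The Igfbp6 window had 49.6% GC and 7 CpG, near the medians of 52.4% and 6 over the 32851 promoters of the table. In the Igfbp3 window the letters TATATA begin 30 bases before the start, the usual distance of a TATA box, and 5.25% of all promoters hold them at any position. The Igfbp7 window holds the GC box GGGCGG, or its reverse complement, at 4 places, beginning 110, 96, 74 and 44 bases before the start, and 32.7% of promoters hold at least 1. The Igfbp6 window holds TATAAA on the opposite strand, beginning 148 bases before the start, and 12.4% of promoters hold it on either strand. That window ends at 102144185, upstream of the gene start of 102144362 given below. The Igfbp3 and Igfbp7 windows border their genes closely, so the 3 windows are not placed alike. The Igfbp4 window, not printed, holds TATAAA 28 bases before the start. None of the 3 printed windows holds the AP-1 letters TGACTCA (4.46% of promoters), the FOXO letters GTAAACA (3.17%) or the E-box letters CACGTG (6.02%) on either strand. These matches describe letters only.

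The test took every gene that reached FPKM 1 in 3 or more libraries, 10537 in all, and 5 of the 10 were among them: Igf1r, Igfbp3, Igfbp4, Igfbp6 and Igfbp7. Igfbp3 passed only through the PBS libraries, the group in which it was high. All its other libraries were under FPKM 1, so its lack of overlap with PBS follows from how it passed. Its calls against PBS, counted below, are therefore no support. Fold changes are differences of log2(FPKM + 1) with SE from limma, adjusted p-values cover all 10537 genes, and 0.05 was the threshold. Limma called 0 of the 5 tested members in TNBS PF against control PF, beside 10.6% of all tested genes. Of the 5, 3 had an unadjusted p under 0.05, a count given without its share over all genes. Voom on recovered fragment numbers, limma's method for counts, called 2. Voom took only those tested genes with a known exon length and called 1547 genes over all, a count given without its share. The designed fit called 1117. Libraries of the groups did not overlap for 3 of the 5, Igfbp3, Igfbp4 and Igfbp6, beside 31.8% of all tested genes. The 1 called in control PF against PBS was Igfbp3 (beside 2.15%), and it was also the only tested member without overlap (beside 18.6%). Igfbp3 and Igfbp6 were called lower in TNBS PF against PBS (beside 16.7%), and the same 2 did not overlap (beside 35.3%). The median log2 fold change of the 5 was −0.16, −0.05 and −0.15 in these comparisons, where the median of all tested genes was −0.01, 0.00 and −0.01. Each group enters a pair of these comparisons, so they are not independent of each other.

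**Figure D2:**
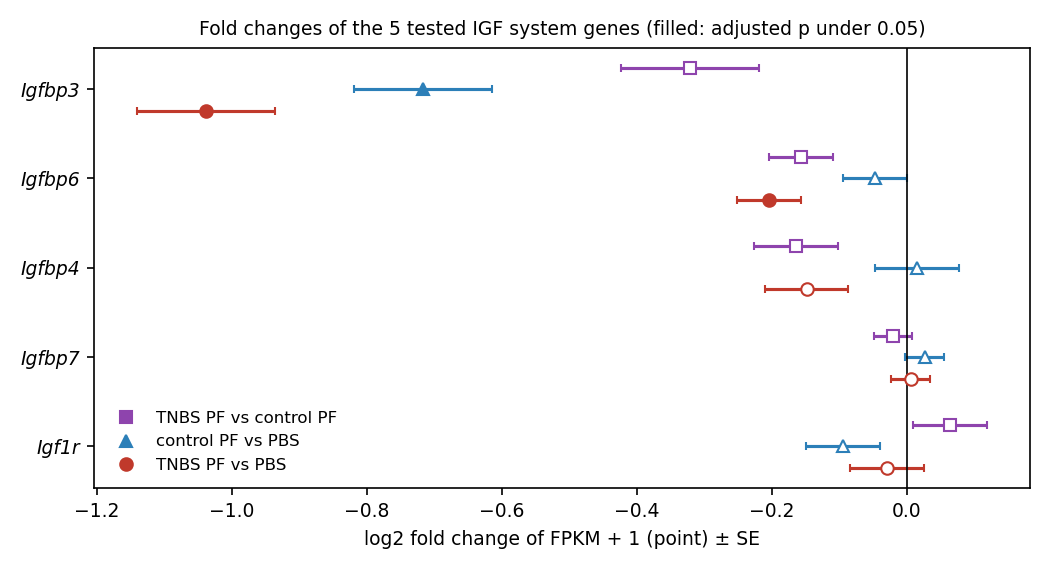
Log2 fold change of FPKM + 1 (point) with its SE (bar) for the 5 tested genes in the 3 comparisons, filled where the adjusted p was under 0.05. The Igfbp3 points are the farthest from 0, at −0.32, −0.72 and −1.04, and those of Igfbp7 lie within 0.03 of it.

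Igf1 (ENSMUSG00000020053, chr10:87858265-87937042, plus strand) encodes IGF-I. It had 0.849, 0.655 and 0.586 FPKM in TNBS PF 1 to 3, 1.07, 0.945 and 0.859 in control PF 1 to 3, and 0.887, 0.994 and 1.09 in PBS 1 to 3. The TNBS PF libraries were the lowest of all, although the gap from TNBS PF 1 to control PF 3 was small. The means were 0.697 ± 0.136 FPKM in TNBS PF, against 0.959 ± 0.108 in control PF and 0.990 ± 0.1004 in PBS (SD, n = 3 each). They rested on 133 to 211 fragments per library in TNBS PF, 174 to 211 in control PF and 157 to 219 in PBS. Only 2 libraries reached FPKM 1, so the gene was not tested. Without the filter on low values the limma log2 fold change of TNBS PF was −0.21 against control PF (adjusted p = 0.138) and −0.23 against PBS (adjusted p = 0.0800). Voom on recovered fragments without that filter, an alternative chosen after seeing the data, gave −0.46 (adjusted p = 0.0224) and −0.52 (adjusted p = 0.00699), so the call depended on the method. Between control PF and PBS both gave values near 0, −0.02 (adjusted p = 0.946) and −0.06 (adjusted p = 0.913). Macrophages can also express Igf1. Their marker list summed to 16.3 to 18.2 FPKM in TNBS PF, 15.3 to 17.4 in control PF and 14.5 to 15.9 in PBS, carried by Cd14 and Cd68.

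Igf2 (ENSMUSG00000048583, chr7:142650766-142666816, minus strand) encodes IGF-II, a fetal growth factor that is imprinted and silenced in most tissues after birth. It was listed at 0 in all 9 libraries, where 3 fragments would be an FPKM of 0.0205 to 0.0293. Of its exon bases 62.8% are shared with Gm49394, an overlapping gene on the same strand that was also listed at 0, and no source used here says how shared bases were counted. The other 2127 bases are shared with no gene of the table.

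Igf1r (ENSMUSG00000005533, chr7:67952827-68233668, plus strand) encodes the receptor of both ligands. It had 4.75, 4.84 and 4.63 FPKM in TNBS PF, against 4.31, 4.47 and 4.69 in control PF, and 5.17, 4.84 and 4.57 in PBS, so the 3 groups overlap one another. The means were 4.74 ± 0.106 FPKM in TNBS PF, against 4.49 ± 0.189 in control PF and 4.86 ± 0.299 in PBS (SD, n = 3 each). The log2 fold change of TNBS PF against control PF was 0.06, with a 95% interval of −0.05 to 0.18 and an adjusted p of 0.510. It was −0.09 for control PF against PBS (−0.21 to 0.02, adjusted p = 0.446) and −0.03 for TNBS PF against PBS (−0.15 to 0.09, adjusted p = 0.757).

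Igfbp3 (ENSMUSG00000020427, chr11:7206086-7213923, minus strand) encodes the main IGF carrier of blood plasma, where it forms a complex with an IGF and the acid-labile subunit. It had 0.204, 0.375 and 0.432 FPKM in TNBS PF, against 0.725, 0.636 and 0.638 in control PF, and 2.13, 1.35 and 1.79 in PBS. The 3 groups formed 3 separate levels, lowest in TNBS PF and highest in PBS. In fragments these were 16, 30 and 31 in TNBS PF, against 45, 37 and 43 in control PF, and 119, 76 and 114 in PBS, so the lowest values rest on few fragments, although those libraries were the deepest. The group means were 0.337 ± 0.119 FPKM in TNBS PF, against 0.666 ± 0.0508 in control PF and 1.76 ± 0.390 in PBS (SD, n = 3 each).

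Against PBS, Igfbp3 fell in both fluids. The mean in TNBS PF was 0.192 times that in PBS (log2 fold change −1.04, SE 0.103, adjusted p = 2.93e-05), and the mean in control PF was 0.379 times that in PBS (−0.72, SE 0.103, adjusted p = 0.00317). Both calls held in all 16 alternative settings, with adjusted p-values of 2.48e-08 to 0.00101 and of 0.000213 to 0.0244. Most of these settings kept the filter, which Igfbp3 passed only through PBS, where it was high. They reuse the same libraries and are no independent support. Because 1 is added to small FPKM values, these log2 fold changes understate the ratio, and voom gave −2.42 and −1.37. In TNBS PF the mean was 0.505 times that in control PF (−0.32, SE 0.103, 95% interval −0.54 to −0.10, adjusted p = 0.0648), which missed the threshold. This comparison was called in 6 of 16 alternatives, among them voom without the FPKM filter, chosen after seeing the data. The adjusted p-values ranged from 0.0112 to 0.217. The smallest came from voom, with a log2 fold change of −1.05, and with a pseudocount of 0.1 the log2 fold change was −0.85 (adjusted p = 0.0247). In the authors' deposited table the log2 fold changes of Igfbp3 are −2.36 for TNBS PF against PBS and −1.40 for control PF against PBS, both listed as down, and −0.97 for TNBS PF against control PF, with p = 0.00376 by an unstated test and no call.

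**Figure D3:**
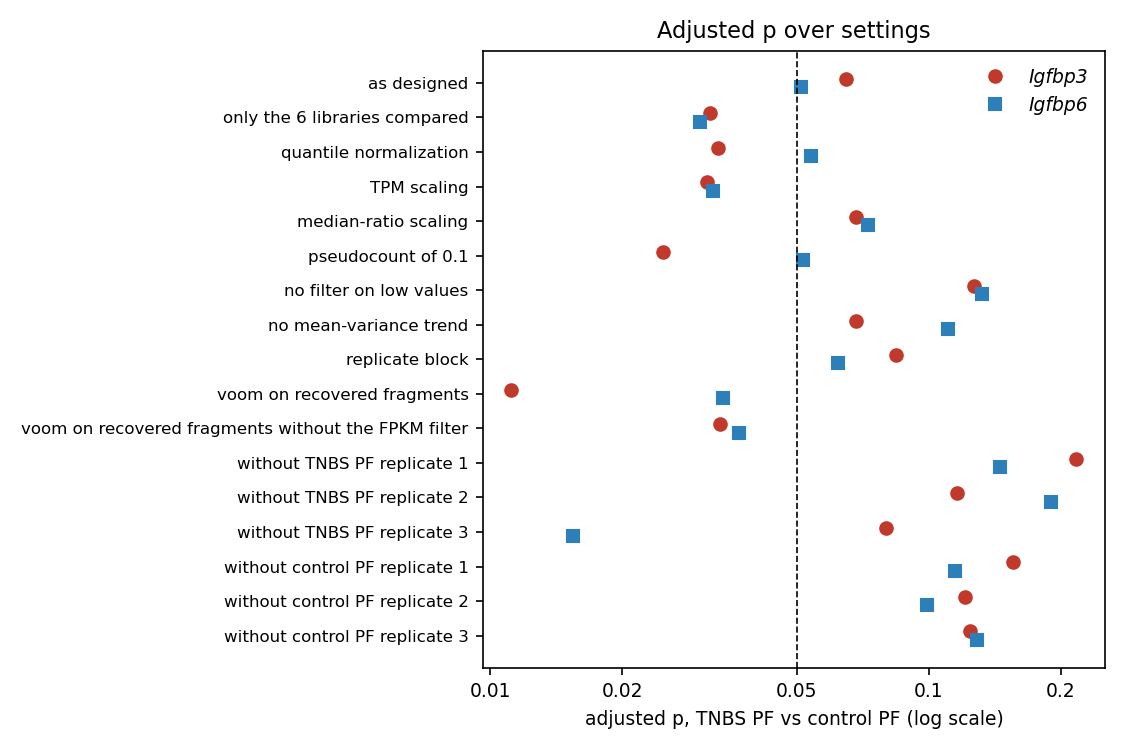
Adjusted p of Igfbp3 and Igfbp6 in TNBS PF against control PF under the designed test and each alternative setting (log axis), with a dashed line at 0.05. Igfbp3 lies below the line in 6 of 16 alternatives and Igfbp6 in 5 of 16. Both counts include voom without the FPKM filter, chosen after seeing the data.

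Igfbp6 (ENSMUSG00000023046, chr15:102144362-102149511, plus strand) encodes a binding protein that prefers IGF-II. It had 53.8, 51.7 and 58.8 FPKM in TNBS PF, against 61.4, 60.4 and 61.5 in control PF, and 59.5, 66.6 and 63.5 in PBS. Every TNBS PF library lay below every other library, and the control PF and PBS libraries were mixed. The means were 54.8 ± 3.66 FPKM in TNBS PF, against 61.1 ± 0.589 in control PF and 63.2 ± 3.57 in PBS (SD, n = 3 each). Igfbp6 fell by 0.20 on the log2 scale in TNBS PF against PBS (SE 0.0473, adjusted p = 0.0104), a call that held in all 16 alternatives with adjusted p-values of 0.00358 to 0.0497. Its log2 fold change in TNBS PF against control PF was −0.16 (SE 0.0473, 95% interval −0.26 to −0.06, adjusted p = 0.0510), just outside the threshold. That comparison was called in 5 of 16 alternatives, among them voom without the FPKM filter, chosen after seeing the data. The adjusted p-values ranged from 0.0155 to 0.190. The smallest came without TNBS PF 3, the highest library of its group, where the log2 fold change was −0.21. The authors' deposited table gives Igfbp6 in TNBS PF against PBS a log2 fold change of −0.19 with p = 0.00849 and no call. For control PF against PBS the limma value was −0.05 (95% interval −0.15 to 0.06, adjusted p = 0.696).

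Igfbp4 (ENSMUSG00000017493, chr11:99041244-99054392, plus strand) encodes a binding protein known to restrain IGF action until PAPP-A cuts it. It had 4.78, 4.12 and 4.61 FPKM in TNBS PF, against 4.94, 5.14 and 5.41 in control PF, and 4.77, 5.11 and 5.43 in PBS. TNBS PF lay below control PF without overlap, while PBS 1 fell among the TNBS PF libraries. The means were 4.51 ± 0.342 FPKM in TNBS PF, against 5.16 ± 0.234 in control PF and 5.10 ± 0.330 in PBS (SD, n = 3 each). None of its comparisons passed. The log2 fold change of TNBS PF was −0.16 against control PF (95% interval −0.30 to −0.03, adjusted p = 0.114) and −0.15 against PBS (−0.28 to −0.01, adjusted p = 0.122), and it was 0.02 for control PF against PBS (−0.12 to 0.15, adjusted p = 0.940). None of the 16 alternatives called Igfbp4 in any comparison.

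Igfbp7 (ENSMUSG00000036256, chr5:77349240-77408041, minus strand) encodes a secreted matrix protein related to the family that binds IGFs with low affinity. It had 120.1, 125.7 and 124.0 FPKM in TNBS PF, against 126.1, 124.9 and 124.2 in control PF, and 119.5, 124.1 and 124.8 in PBS. The 9 libraries span a narrow range in which the groups overlap. The means were 123 ± 2.89 FPKM in TNBS PF, against 125 ± 0.930 in control PF and 123 ± 2.88 in PBS (SD, n = 3 each). The log2 fold change was −0.02 for TNBS PF against control PF (95% interval −0.08 to 0.04, adjusted p = 0.701), 0.03 for control PF against PBS (−0.04 to 0.09, adjusted p = 0.722) and 0.01 for TNBS PF against PBS (−0.06 to 0.07, adjusted p = 0.920). The direction of the last depended on the scaling, with −0.02 under TPM scaling and −0.04 under quantile normalization. Of the exon bases of Igfbp7, 7.03% lie over Polr2b on the opposite strand, which had 39.1 to 42.2 FPKM. No source used here says whether fragments were counted by strand.

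**Figure D4:**
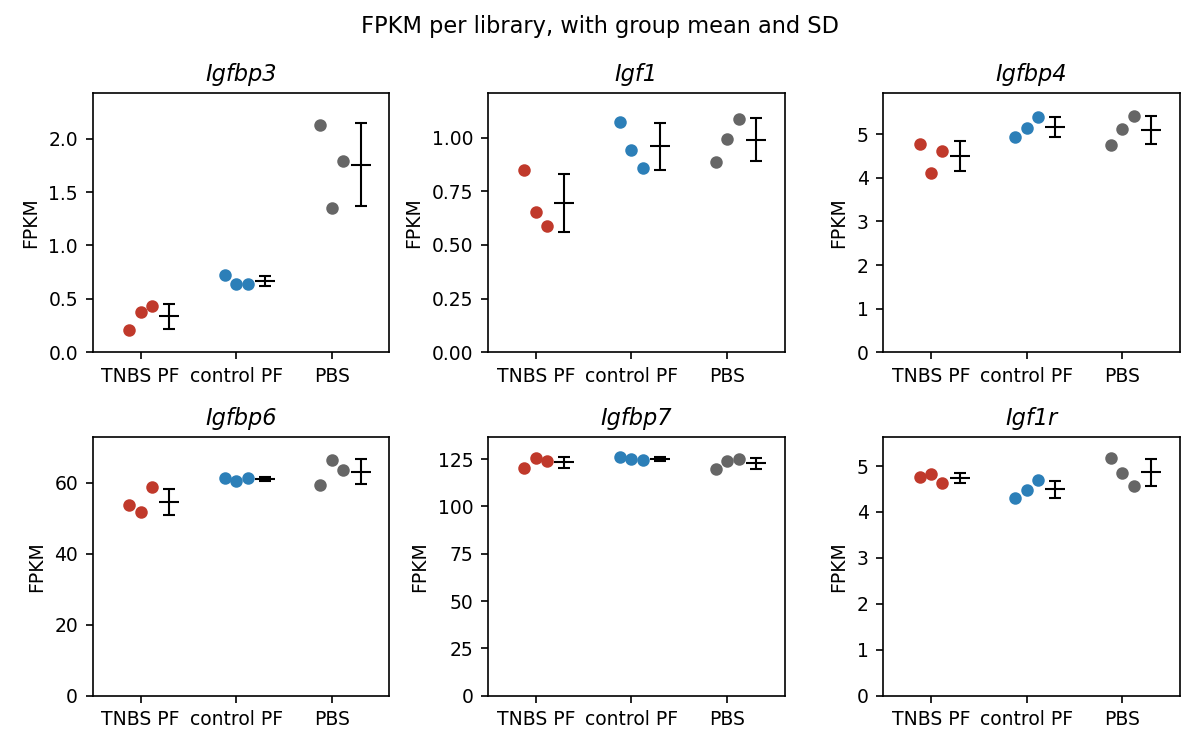
FPKM per library (points) with the group mean and SD (bars) for members of the IGF system, each panel on its own linear axis from 0, with 3 libraries in each of the TNBS PF, control PF and PBS groups. Igfbp3 falls into 3 separate levels with means of 0.337 FPKM in TNBS PF, against 0.666 in control PF and 1.76 in PBS, whereas the Igfbp7 groups overlap.

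Igfbp2, Igfbp5 and Pappa were at the detection limit. Igfbp2 (ENSMUSG00000039323, chr1:72824503-72852474, plus strand), a binding protein abundant in fetal tissue, had 0 to 2 fragments per library and at most 0.0602 FPKM. Igfbp5 (ENSMUSG00000026185, chr1:72857932-72874884, minus strand), a binding protein abundant in bone matrix, had 8, 0 and 2 fragments in TNBS PF, against 0, 0 and 1 in control PF, and 1, 1 and 0 in PBS. Its highest level, 0.0531 FPKM, was that of TNBS PF 1 alone. These 2 genes lie next to each other on chromosome 1, with ends 5457 bp apart, and both were almost silent. Igfbp3 lies 3539 bp from Igfbp1, a binding protein of liver that was listed at 0 in all 9 libraries, where 3 fragments would be 0.0769 to 0.110 FPKM.

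Pappa (ENSMUSG00000028370, chr4:65124174-65357509, plus strand) encodes PAPP-A, the protease that cuts IGFBP-4. It had 6, 11 and 2 fragments in TNBS PF, against 11, 11 and 16 in control PF, and 9, 11 and 10 in PBS. Its levels were 0.0229 ± 0.0156 FPKM in TNBS PF, against 0.0571 ± 0.00908 in control PF and 0.0486 ± 0.00598 in PBS (SD, n = 3 each), and no TNBS PF library overlapped the others. TNBS PF 2 had the same 11 fragments as control PF 1, control PF 2 and PBS 2, in a deeper library. Without the filters, voom gave −1.46 for TNBS PF against control PF (adjusted p = 0.0967) and −1.23 against PBS (adjusted p = 0.164). Both had an unadjusted p under 0.05, and neither passed after adjustment.

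As a share of the summed FPKM of the 7 genes Igfbp1 to Igfbp7, Igfbp7 made up 67.4 ± 1.57% in TNBS PF, against 65.1 ± 0.318% in control PF and 63.7 ± 0.689% in PBS (SD, n = 3 each). Igfbp6 made up 29.9 ± 1.45% in TNBS PF, against 31.8 ± 0.229% in control PF and 32.8 ± 0.915% in PBS. The small shift toward Igfbp7 went with lower Igfbp6 and Igfbp3 means at a nearly even Igfbp7 mean. Igfbp6 was not called between control PF and PBS. Igfbp3 took 0.183 ± 0.0613% in TNBS PF, against 0.347 ± 0.0246% in control PF and 0.915 ± 0.230% in PBS, under 1% on average in every group. The sum itself was 183 ± 4.57 FPKM in TNBS PF, against 192 ± 1.02 in control PF and 193 ± 6.10 in PBS.

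Among 6954 well-expressed genes outside the set, those whose log2(FPKM + 1) followed Igfbp3 most closely over the 9 libraries were Ripk2, a kinase of innate immune signalling (Pearson r = 0.976), the zinc finger gene Zfp101 (r = 0.972) and Sun2, a protein of the nuclear envelope (r = 0.971). Ripk2 averaged 17.9 ± 0.294 FPKM with TNBS PF, 18.5 ± 0.671 with control PF and 21.4 ± 0.559 with PBS (SD, n = 3 each). Its means had the same order as those of Igfbp3 over a narrower range. Igfbp6 was followed most closely by Vps45, a vesicle trafficking gene (r = 0.950), the chemokine gene Ccl2 (r = 0.945) and Zfp933 (r = 0.944). Ccl2 averaged 299 ± 17.2 FPKM in TNBS PF, against 315 ± 0.843 in control PF and 328 ± 14.5 in PBS (SD, n = 3 each). These correlations are descriptions over 9 libraries that share their groups.

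Genes of 6 related lists are described next. Their limma counts stand beside 10.6%, 2.15% and 16.7% of all tested genes called in the 3 comparisons, and their medians beside −0.01, 0.00 and −0.01. Their voom counts stand beside the 1547, 374 and 2163 genes that voom called over all, given without a share. Counts at an unadjusted p under 0.05 are given without a share over all genes. Of 8 genes for other receptors of the family, insulin and further binding proteins, 2 were tested. Limma called 0 of the 2 in TNBS PF against control PF and 0 in control PF against PBS, where 1 and 1 had an unadjusted p under 0.05 and voom called 1 and 0. Igf2r, the mannose-6-phosphate receptor that clears IGF-II, fell in TNBS PF against PBS (24.8 ± 0.483 FPKM in TNBS PF and 29.1 ± 1.98 in PBS, log2 fold change −0.22, SE 0.0450, adjusted p = 0.00463). Against control PF (27.0 ± 0.895 FPKM) it was −0.12 (adjusted p = 0.106), and control PF against PBS was −0.10 (adjusted p = 0.293). Insr, the insulin receptor, had 4.68 ± 0.254 FPKM in TNBS PF, against 4.89 ± 0.400 in control PF and 5.07 ± 0.382 in PBS and passed in no comparison. Ins1, Ins2 and Igfbpl1 were listed at 0 in every library.

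Of 14 proteases that can cut IGF binding proteins, their inhibitors and related genes, 12 were tested, and 2 rose and 1 fell in TNBS PF against control PF, with a median log2 fold change of 0.04 over the 12, and voom called 4 higher and 2 lower. C1s1, a protease of the complement cascade, fell to 29.5 ± 0.614 FPKM in TNBS PF, against 35.3 ± 2.52 in control PF (−0.25, adjusted p = 0.0121). This call was lost without the low-value filter (adjusted p = 0.0581), without TNBS PF 2 (0.0505) and without control PF 2 (0.0550). Htra1, a secreted serine protease, was at 117 ± 3.67 FPKM in TNBS PF and 109 ± 1.27 in control PF (0.10, adjusted p = 0.0466), but that call was lost in 11 of 16 alternatives, including each left-out library of these groups, with adjusted p up to 0.187. Limma and voom called 0 of the 12 in control PF against PBS, 4 had an unadjusted p under 0.05, and the smallest p was that of Htra3 (0.784 ± 0.152 FPKM in control PF and 1.07 ± 0.0773 in PBS, −0.22, adjusted p = 0.211). Against PBS, 1 rose and 3 fell in TNBS PF. The falls were C1s1 (35.5 ± 2.77 FPKM in PBS, −0.26, adjusted p = 0.00720), Mmp14, a membrane-bound matrix metalloproteinase (32.4 ± 0.719 in TNBS PF and 36.9 ± 1.04 FPKM in PBS, −0.18, adjusted p = 0.00339), and Htra3 (0.686 ± 0.105 in TNBS PF, −0.30, adjusted p = 0.0252). Like Igfbp3, Htra3 reached FPKM 1 in the 3 PBS libraries alone and so was tested only through the group where it was high. The call of Htra3 was lost in 5 of 16 alternatives, quantile normalization and the fits without TNBS PF 2, TNBS PF 3, PBS 1 or PBS 3, with adjusted p up to 0.0980.

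Of 30 genes of signalling downstream of IGF1R, 29 were tested. Irs1, an adaptor of the receptor, was the exception at 0.712 to 0.950 FPKM. In TNBS PF against control PF 2 rose and 3 fell, with a median log2 fold change of −0.05, and voom called 2 higher and 7 lower. Eif4ebp1, a repressor of translation that mTORC1 phosphorylates, rose to 50.7 ± 1.19 FPKM in TNBS PF, against 41.8 ± 1.28 in control PF (0.27, adjusted p = 0.000306), and 40.4 ± 1.18 in PBS (0.32, adjusted p = 5.78e-05). Pik3r1, the p85 alpha regulatory subunit of PI3 kinase, fell to 5.60 ± 0.299 FPKM in TNBS PF, against 6.82 ± 0.404 in control PF (−0.24, adjusted p = 0.0110), a call lost without TNBS PF 3 (0.0537) or control PF 3 (0.0520), and against 7.36 ± 0.174 in PBS (−0.34, adjusted p = 0.000939). Pik3cb, a catalytic subunit of PI3 kinase, rose to 9.76 ± 0.243 FPKM in TNBS PF, against 8.36 ± 0.489 in control PF (0.20, adjusted p = 0.0180), a call lost without TNBS PF 2 (0.0771), TNBS PF 3 (0.0546), control PF 1 (0.0658) or control PF 3 (0.0610). The transcription factor gene Foxo4 fell to 16.0 ± 0.560 FPKM in TNBS PF, against 18.5 ± 0.0871 in control PF (−0.19, adjusted p = 0.00897). Limma and voom called 0 of the 29 in control PF against PBS, 3 had an unadjusted p under 0.05, and the smallest p was that of the kinase gene Akt1 (55.6 ± 0.274 FPKM in control PF and 51.9 ± 1.31 in PBS, 0.10, adjusted p = 0.120). Against PBS, 2 rose and 3 fell in TNBS PF. Akt1 rose there (58.1 ± 1.33 FPKM in TNBS PF, 0.16, adjusted p = 0.00300), and Tsc1, which restrains mTORC1, was at 3.92 ± 0.152 FPKM in TNBS PF and 4.57 ± 0.0858 in PBS (−0.18, adjusted p = 0.0434), a call lost in 10 of 16 alternatives, including each left-out library of these groups, with adjusted p up to 0.145.

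Of 15 genes known as FOXO targets, 13 were tested. In TNBS PF 5 fell and 1 rose against control PF, and 7 fell and 2 rose against PBS, with median log2 fold changes of −0.13 and −0.16. In control PF against PBS 1 fell and 1 rose, with a median of 0.01, and voom called 2 lower and 1 higher. Gadd45a, a growth arrest gene induced by DNA damage, rose to 16.7 ± 0.512 FPKM in TNBS PF, against 13.0 ± 1.09 in control PF (0.34, adjusted p = 0.00138), and 11.96 ± 0.290 in PBS (0.45, adjusted p = 0.000115). Pdk4, an inhibitor of pyruvate dehydrogenase, fell to 8.999 ± 0.397 FPKM in TNBS PF, against 11.3 ± 0.638 in control PF (−0.30, adjusted p = 0.00218). Txnip, which binds thioredoxin, fell to 55.7 ± 3.42 FPKM in TNBS PF, against 65.7 ± 1.20 in control PF (−0.24, adjusted p = 0.00261). Sod2, the mitochondrial superoxide dismutase, fell to 11.4 ± 0.873 FPKM in TNBS PF, against 14.2 ± 0.377 in control PF (−0.29, adjusted p = 0.00269), and rose in control PF against PBS (11.4 ± 0.305 FPKM in PBS, 0.30, adjusted p = 0.00871). The other gene past the limma threshold in control PF against PBS was Fbxo32, a ubiquitin ligase subunit of muscle atrophy, which fell (4.06 ± 0.0279 FPKM in control PF and 5.06 ± 0.112 in PBS, −0.26, adjusted p = 0.0191). The call of Fbxo32 was lost without control PF 1 (0.0599), control PF 2 (0.0568), control PF 3 (0.0635) or PBS 3 (0.0512). The largest falls in TNBS PF against PBS were Pik3ip1, an inhibitor of PI3 kinase (2.26 ± 0.197 FPKM in TNBS PF and 3.54 ± 0.111 in PBS, −0.48, adjusted p = 0.00292), Fbxo32 (3.799 ± 0.174 FPKM in TNBS PF, −0.34, adjusted p = 0.000719) and Sesn3, a sestrin that restrains mTORC1 (2.66 ± 0.0373 FPKM in TNBS PF and 3.61 ± 0.312 in PBS, −0.33, adjusted p = 0.00370).

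Of 6 genes of growth hormone signalling, which drives Igf1 in liver, 5 were tested and limma called 0 in each comparison, with 2, 1 and 2 at an unadjusted p under 0.05 and 2, 0 and 1 called by voom. Ghr, the growth hormone receptor, had 13.8 ± 0.559 FPKM in TNBS PF, against 12.6 ± 0.0260 in control PF and 12.6 ± 0.284 in PBS. Its log2 fold change in TNBS PF was 0.12 against control PF (adjusted p = 0.0814) and 0.12 against PBS (adjusted p = 0.0515). In control PF against PBS the smallest p of the list was that of the transcription factor gene Stat5a (4.59 ± 0.159 FPKM in control PF and 4.13 ± 0.153 in PBS, 0.12, adjusted p = 0.311). Of 12 genes listed for Igf2 mRNA binding, the imprinted network and related growth control, 10 were in the table and 4 were tested. The 1 called by limma was Hmga2, a chromatin protein of growing and fetal cells, which rose to 43.9 ± 0.888 FPKM in TNBS PF, against 33.1 ± 1.12 in control PF (0.40, adjusted p = 7.00e-05), and 34.1 ± 1.74 in PBS (0.36, adjusted p = 7.67e-05). Voom called 1 higher and 1 lower of the list in TNBS PF against PBS. Limma and voom called 0 of the 4 in control PF against PBS, 0 had an unadjusted p under 0.05, and the smallest p was that of Igf2bp3, which binds Igf2 mRNA (3.71 ± 0.417 FPKM in control PF and 3.98 ± 0.111 in PBS, −0.08, adjusted p = 0.598).

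**Figure D5:**
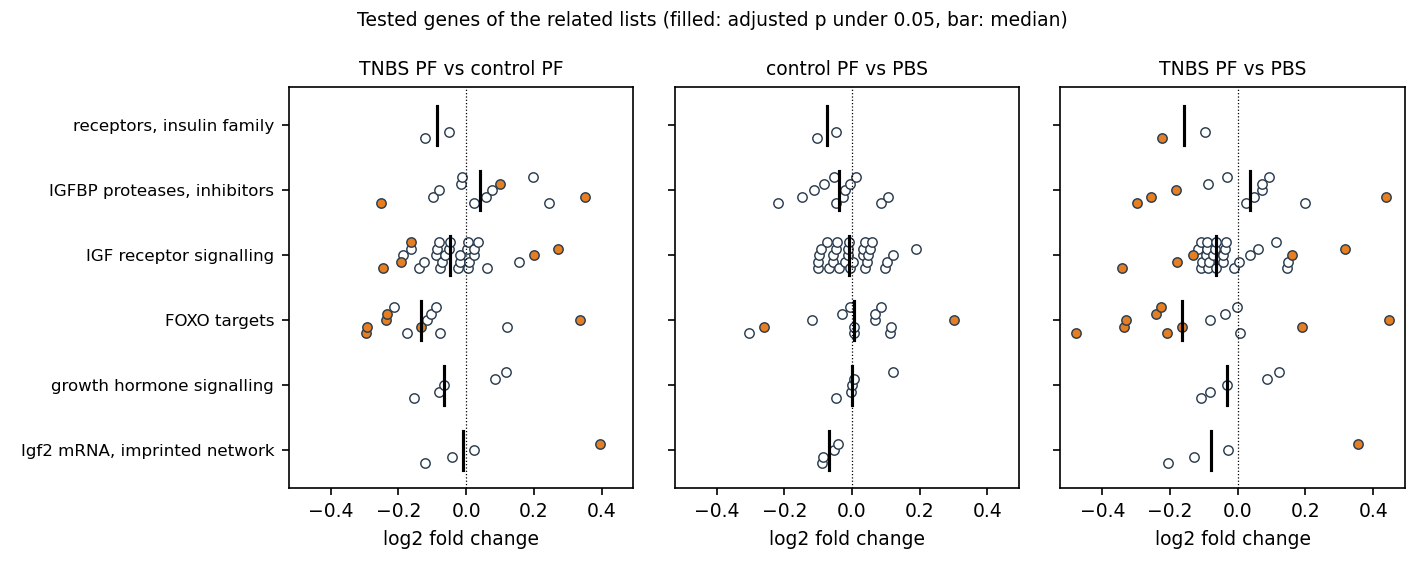
Log2 fold change of every tested gene of the 6 related lists in the 3 comparisons (1 point per gene, filled where the adjusted p was under 0.05, vertical bar at the list median). The median of the 13 FOXO targets lies at −0.13 in TNBS PF against control PF, 0.01 in control PF against PBS and −0.16 in TNBS PF against PBS.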

How the data were processed

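RNA sequencing of 9 libraries was analysed. Per the submitters' processing notes, reads were trimmed with cutadapt 1.15 and the build was mm10. No source used here names the aligner, the counting program, its annotation or the strand setting. The authors deposited FPKM for 21959 genes, per the file headers. They also deposited a log2 fold change and a p-value for each pair of groups, by an unstated test. These columns were quoted for Igfbp3 and Igfbp6 only.

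The deposited FPKM times GENCODE M21 exon lengths (21851 genes) fell on whole fragments within 0.01 for 97.2 to 97.3% of values under 1000 fragments, which gave depth and fragment numbers. The values of the 10 members lay within 0.00367 of a whole fragment. Intervals cover the spread between libraries only.

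The 10537 genes that reached FPKM 1 in 3 or more libraries were fitted as log2(FPKM + 1) in limma 3.58.1 with R 4.3.3, all 9 libraries in 1 model with a mean-variance trend. P-values had Benjamini-Hochberg adjustment over all of them, and 0.05 was the threshold. Alternatives changed the pseudocount, filter, trend, scaling, libraries and model (voom on recovered fragments). Replicate numbers entered no designed fit.

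The 10 genes and the 6 related lists were chosen with earlier results of these data known. From each list, up to 4 genes per comparison were named, those past the threshold with the largest absolute log2 fold change, or the gene of smallest p where none passed. The untested genes Irs1, Ins1, Ins2, Igfbp1 and Igfbpl1, and Insr, were added outside this rule after their values were seen. For the genes most like a member, tested genes with a mean FPKM of at least 5 were ranked by Pearson correlation. H19 and Meg3 were not analysed here. Values of 1 gene of the protease list are not reported here.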

Additional observations from a re-analysis of the deposited data

How the results depend on the processing

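The falls of Igfbp3 in both fluids and of Igfbp6 in TNBS PF against PBS passed the threshold in all 16 alternatives. Most of these kept the filter, which Igfbp3 passed only through PBS, where it was high. The number of members called in TNBS PF against control PF moved with the setting. It was 0 as designed, 1 with a pseudocount of 0.1 or quantile normalization, 2 with TPM scaling, with only the 6 libraries compared or with voom, and 3 with voom without the FPKM filter (at least 10 fragments), chosen after seeing the data. Leaving out 1 library gave 0 to 1, the 1 without TNBS PF 3. Over all genes voom called 1547 there. The designed fit called 1117, and between 661 and 860 with a library left out. Leaving out any library of the pair but control PF 1 lowered that count by more than 1.5 times. In control PF against PBS, 227 genes were called, 103 without the filter, 117 without the trend, 374 with voom, 372 with voom without the filter and 115 to 311 with a library left out, the lowest without control PF 1, 2 or 3 or PBS 3. In TNBS PF against PBS they were 1758, and 1148 (without TNBS PF 3) to 1620 with a library left out. Of the 1758, 46.8% were higher in TNBS PF, against 35.1% of 1777 called under TPM scaling and 54.3% of 1791 under median-ratio scaling. In TNBS PF against control PF 48.6% of 1117 were higher, and 58.0% under median-ratio scaling. The causes were not tested.

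Directions turned for members near 0. Igfbp7 in TNBS PF against PBS was −0.0165 under TPM scaling, −0.0406 under quantile normalization and −0.0138 to 0.0242 with a library left out, below 0 without TNBS PF 2 or PBS 1. Igfbp4 in control PF against PBS was −0.0249 to 0.0532 with a library left out, below 0 without control PF 3 or PBS 1. Igf1r in TNBS PF against PBS was −0.0655 to 0.00784 with a library left out, above 0 without PBS 1. Of 240 member values under alternatives, 222 kept direction and side of the threshold, 11 passed it newly and 7 turned. Of 576 values of named list genes, 528 kept both, 39 lost the call and 9 gained it. Of 576 counts over the lists, 51 differed by more than 1.5 times. In TNBS PF against control PF voom called 4 higher and 2 lower of the proteases, where limma had 2 and 1, and 2 higher and 7 lower of the signalling genes, where limma had 2 and 3.

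The labels do not say whether replicate numbers pair the libraries. Of 9 same-number pairs 0 had a correlation of deviations over 0.1 (−0.0978 to 0.0746), and 3 of 9 libraries correlated best with their own number. With 3 libraries per group, these correlations cannot decide whether libraries were paired. With a replicate block 906, 169 and 1537 genes were called in the 3 comparisons. Few fragments limit what can be said of Igf2, Igfbp2, Igfbp5 and Pappa, which had at most 16 in any library. The reason for their low numbers was not tested.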
